A study of Homo sapiens with 25 samples.

Results

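Messenger RNAs that came down with mCherry-tagged IGF2BP1 carrying the Y396E substitution were compared between arsenite-treated and untreated human HCT116 cells. The comparison used the 6 RNA immunoprecipitation (RIP) libraries of the Y396E line, 3 from arsenite-treated and 3 from control dishes, out of 25 RIP libraries, and members were taken by the line and treatment in the sample labels. HCT116 is a colorectal carcinoma cell line. Its Y396E derivative lacked IGF2BP2 and IGF2BP3, carried the Tet-OsTIR1-PURO cassette, and expressed mCherry-IGF2BP1 Y396E from a lentivirus. The wild-type, S181E and RQ lines had the same background and carried the unmutated bait, a glutamate at S181, or glutamines at R167, R168, R174 and R178. Parental HCT116, 1 library per treatment, had no bait and was the background of the pulldown. Arsenite was sodium arsenite at 500 µM for 2 h, and control dishes received PBS.

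The model has limits that touch every value. The bait came from an integrated virus and not from the IGF2BP1 gene. Each line was a population sorted on a narrow mCherry gate, and it descended from clones selected for the IGF2BP2 and IGF2BP3 knockouts. Dishes were plated and grown separately, so the spread between libraries is that between cultures of 1 line. A RIP level cannot separate how much of an mRNA the cells held from how much of it was bound, and a lower level in fewer cells cannot be told apart from less RNA per cell. RNA-Seq libraries were not analysed here.

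IGF2BP1 is an oncofetal RNA-binding protein that holds RNA through RRM and KH domains joined by disordered linkers, and it influences the stability, localization and translation of its targets. Y396 lies in the linker between the pairs of KH domains. The chicken orthologue ZBP1 is phosphorylated by Src at the equivalent tyrosine, and glutamate mimics the negative charge of a phosphate. Arsenite is an oxidative and proteotoxic stressor. It leads to phosphorylation of eIF2α, arrest of translation initiation, run-off of ribosomes and assembly of stress granules, and it switches on immediate early, heat shock, NRF2 and ATF4 genes.

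The 6 Y396E libraries held 23358347 to 48926725 counts. In control, 63.0 to 66.6% of the counts fell on protein-coding genes and 31.8 to 35.5% on mitochondrial rRNA. In arsenite these shares were 72.1 to 75.4% and 23.4 to 26.7%. Log CPM values correlated at 0.975 or more between libraries of the same treatment and at 0.834 to 0.855 between treatments. The bait's own mRNA, counted under IGF2BP1, stood at 98.7, 109 and 71.4 CPM (counts relative to library size, scaled by TMM) in control and 52.0, 52.0 and 52.3 CPM in arsenite, against 0 in both parental libraries, where 3 counts would be 2.02 and 0.130 CPM. Gene counts cannot show the substituted codon. Transcripts of the knocked-out IGF2BP2 (131 to 219 CPM) and IGF2BP3 (168 to 394 CPM) were still counted. Epithelial markers were present in all 6 libraries, with KRT8 at 428 to 1180.4 CPM and EPCAM at 51.9 to 123 CPM. CDH17, LGALS4, CEACAM5 and CEACAM6 were at or near 0. The 15 markers of other cell types summed to 7.65 to 15.6 CPM, most of it COL1A1, and none passed the filter.

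Arsenite moved most of the mRNAs in the Y396E pulldown. Tests covered the 8734 protein-coding genes that exceeded 10 CPM in 11.5 or more of 23 libraries with a bait. Of these, 2736 rose (31.3%) and 2952 fell (33.8%). A gene was called when edgeR's quasi-likelihood test gave an adjusted p under 0.05 and the change exceeded 20%. The median log2 fold change over all tested genes was -0.02. More than 2-fold changes were called for 1034 genes upward and 878 downward, and more than 4-fold changes for 70 and 23. The 3 arsenite libraries lay wholly above the 3 control libraries for 2713 of the genes that rose and wholly below for 2913 of those that fell. Over all tested genes, called or not, the treatments did not overlap for 3220 upward and 3393 downward (75.7% in all), so a lack of overlap in a single gene was the usual case. The largest rises were of transcription factors and phosphatases of the immediate early response. The deepest losses were of ANKRD33B, ARHGDIB and TP53INP1. The balance of calls depended on the scaling. When TMM was computed from the 1532 genes that the bait did not raise over the parental cells (the parental-level scaling), the median change became -0.44, and 1414 genes rose while 4554 fell, so every direction here is relative to the median mRNA.

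**Figure D1:**
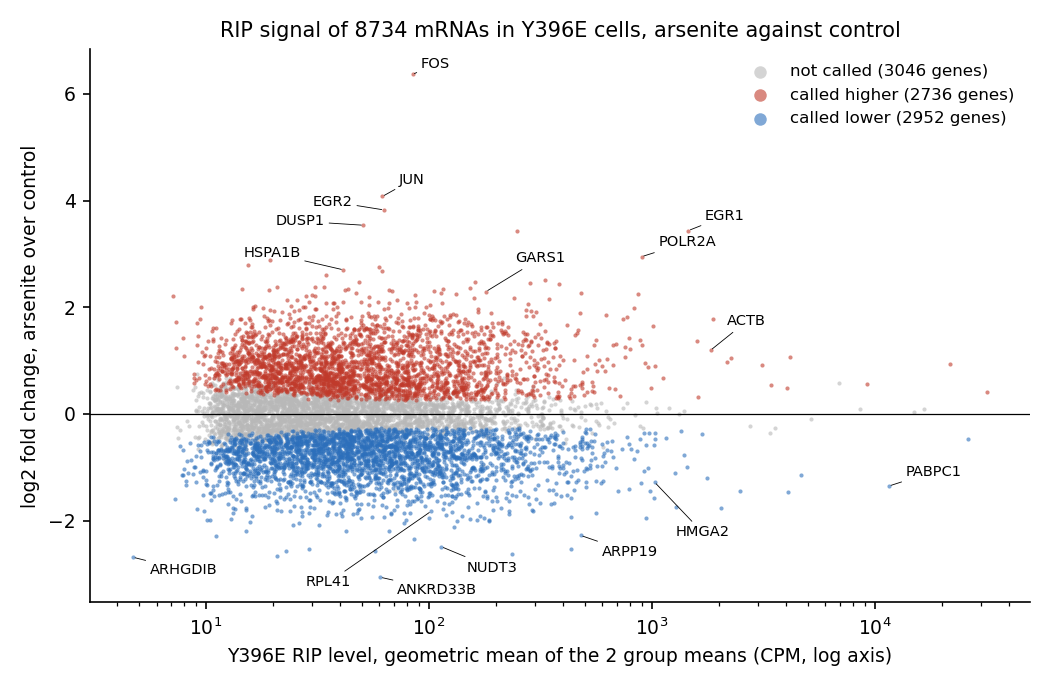
Log2 fold change in RIP signal, arsenite over control, of 8734 mRNAs in Y396E cells, against the geometric mean of both group means in CPM on a log axis. Red points are the 2736 genes called higher, blue points the 2952 called lower and grey points the 3046 not called; FOS at 6.36 stands above all others, and calls in both directions occur over most of the range of levels.

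Immediate early genes, which are transcribed within minutes of a stimulus from factors already in the cell, held 6 of the 12 largest rises. FOS, a subunit of the AP-1 transcription factor, was at 11.5, 11.2 and 5.18 CPM in control and 731, 798 and 770.2 CPM in arsenite. It rose by 6.36 ± 0.34 on the log2 scale (SE, adjusted p = 3.9e-13 by edgeR). JUN, the partner of FOS in AP-1, went from 15.6, 16.6 and 13.1 CPM to 233, 242 and 286 CPM (log2 fold change 4.08 ± 0.15, adjusted p = 1.1e-15). The zinc finger factor EGR2 went from 18.4, 12.1 and 19.5 CPM to 226, 209 and 274 CPM (3.82 ± 0.21). Its relative EGR1 was at 509, 344 and 479 CPM in control and 4385, 4603 and 5408 CPM in arsenite (3.44 ± 0.19). The 12 were picked from called genes without overlap between treatments, so the separation of their libraries followed from the choice. DUSP1, which removes phosphate from MAP kinases, went from 16.8, 17 and 10.9 CPM to 165, 171 and 182 CPM (3.54 ± 0.16). FOSB, another AP-1 subunit, was at 86.7, 73.1 and 67.9 CPM and then 776, 784 and 879.9 CPM (3.42 ± 0.22). The others among the 12 were NFKBIZ (2.79), an inhibitor-of-NF-κB family member, CCNL1 (2.76), a cyclin of splicing kinases, DUSP2 (2.68), POLR2A (2.95), EPPK1 (2.88) and HSPA1B (2.701).

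Most of these transcripts were higher still in the arsenite pulldown of cells with no bait. FOS was listed at 0 in the parental control library and stood at 1271 CPM in the parental arsenite library, above all 3 Y396E arsenite libraries. FOSB reached 1971 CPM and JUN 729.8 CPM there, again above the Y396E values. EPPK1 (455 CPM), HSPA1B (472 CPM), DUSP1 (215 CPM), DUSP2 (203 CPM) and CCNL1 (188 CPM) also exceeded all 3 Y396E arsenite libraries there. EGR1, at 1817 CPM in the parental arsenite library, was lower there than in the Y396E arsenite libraries. The same held for EGR2 (163 CPM), NFKBIZ (30.1 CPM) and POLR2A (598 CPM). Averaged over both treatments, the Y396E level was 0.610 times the parental level for FOS, 0.355 times for JUN and 2.88 times for EGR1. The part of background binding in these rises was not tested.

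The response of immediate early genes was not uniform. Of 45 tested members of the list, 23 rose (51.1%) and 15 fell (33.3%), against 31.3% and 33.8% of all tested genes. The share that fell was thus near that of all tested genes, and 7 members were not called. The median of 0.40 became -0.02 under the parental-level scaling. ATF3 (1.90), IER2 (1.71), EGR3 (1.62) and JUNB (1.41) were among the members that rose. SRF, the factor that activates many of these genes, fell from 237, 225 and 227 CPM to 64.1, 54.5 and 66.6 CPM (-1.89 ± 0.11). FOSL2, an AP-1 subunit, fell from 120.2, 122 and 146 CPM to 30.3, 35.8 and 39.5 CPM (-1.87 ± 0.13). For both genes all arsenite libraries lay below all control libraries. ID2 (-1.50), IER3 (-1.06) and MAFF (-1.003) fell as well. MYC, at 557, 616 and 699 CPM in control and 531, 546 and 545 CPM in arsenite, was not called (-0.20 ± 0.09, adjusted p = 0.055), but was called lower without control library 1 (-0.27).

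Promoters of these genes were searched, in the 300 bases from 250 before to 50 after the start, for the CArG box bound by SRF and for TGACGTCA, the cAMP response element bound by ATF and CREB factors. RefSeq promoters were found for 11 of the 12 genes with the largest rises. The 2 with a CArG box and the 2 with TGACGTCA are shown in capitals below, because these are the textbook elements of stimulus-driven transcription (GRCh38.p14: EGR1, chr5:138465364-138465393, plus strand; EGR2, chr10:62816418-62816447, minus; CCNL1, chr3:157160215-157160244, minus; DUSP1, chr5:172771302-172771331, minus).
EGR1: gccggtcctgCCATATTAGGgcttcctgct
EGR2: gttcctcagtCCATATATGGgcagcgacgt
CCNL1: gcccggcgtggTGACGTCAgggcggaagcg
DUSP1: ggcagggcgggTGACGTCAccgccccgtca
The CArG box was in a promoter of 3 of 33 immediate early genes and in 1.29% of all 35116 promoters. For TGACGTCA these values were 5 of 33 and 1.85%. A gene counted if any of its promoters held the element, whereas the overall share is per promoter, so the shares are not in like units. Both strands were read, and a match is a description and not a binding site. SRF, whose own promoter held a CArG box, fell, and ARHGDIB, among the 12 deepest losses, held one too.

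Chaperones of the heat shock response, which refold or hold damaged proteins, mostly rose. Of 29 tested, 21 rose (72.4%) and 2 fell (6.90%), against 31.3% and 33.8% of all tested genes, with a median of 1.10. Under the parental-level scaling 19 rose and 5 fell (median 0.68). HSPA1B, the inducible HSP70, went from 16, 14.8 and 17.8 CPM to 111, 98.1 and 106 CPM (2.701 ± 0.20, adjusted p = 8.5e-11). BAG3, its nucleotide exchange factor, went from 54.6, 46.2 and 53.4 CPM to 251, 240.2 and 286 CPM (2.33 ± 0.11). The cytosolic HSP90 gene HSP90AB1 went from 366, 432 and 389 CPM to 1854, 1944 and 1838 CPM (2.25 ± 0.11). The libraries of the 2 treatments were well apart for these 3 genes. The constitutive HSP70 gene HSPA8 (1.32), the mitochondrial chaperonin HSPD1 (1.37), the co-chaperones HSPH1 (1.65) and STIP1 (1.69), and the polyubiquitin gene UBB (1.14) rose less. HSPA1B and HSPA1A are nearly identical, so the counting could divide reads between them, and the value of HSPA1B is uncertain. DNAJB6 fell (-0.37, adjusted p = 0.022), as did MRPL18 (-0.27), but without arsenite library 2 neither was called, and when any 1 control library was left out, 1 of them was called. DNAJB4 was not called (-0.40, adjusted p = 0.10). The list summed to 2890 to 3253 CPM in the control and 7521 to 7879 CPM in the arsenite libraries, and to 5746 and 15820 CPM in the parental control and arsenite libraries. None of the 29 members was 4-fold or more above the parental level.

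The heat shock element is 3 adjoining GAA and TTC units in alternation, each parted by NN. It was in a promoter of 8 of 27 chaperone genes (29.6%) and in 0.490% of all promoters. The first share is per gene and the second per promoter. Of these 8 genes, HSPD1, HSPA8, HSP90AA1, HSP90AB1, DNAJA1, SERPINH1 and CHORDC1 rose, and DNAJB6 fell. Windows of 4 of them are given as the clearest examples, with the element in capitals (GRCh38.p14: HSPD1, chr2:197500061-197500090, minus strand; HSPA8, chr11:123062345-123062374, minus; HSP90AA1, chr14:102087111-102087140, minus; DNAJA1, chr9:33025268-33025297, plus).
HSPD1: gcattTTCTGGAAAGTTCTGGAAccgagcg
HSPA8: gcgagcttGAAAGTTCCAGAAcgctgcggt
HSP90AA1: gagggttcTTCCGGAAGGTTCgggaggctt
DNAJA1: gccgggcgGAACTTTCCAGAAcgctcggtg
Of these 4 genes HSP90AA1 rose least, by 0.80 ± 0.13, from 440.1, 522 and 436 CPM to 808, 862 and 757 CPM.

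**Figure D2:**
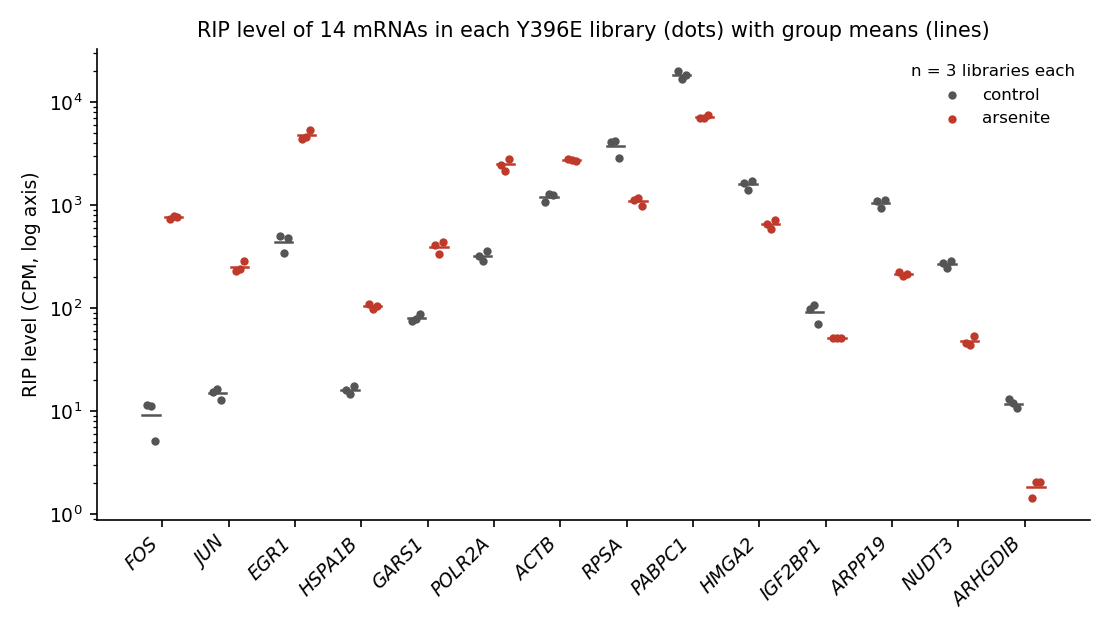
RIP level in CPM on a log axis of 14 mRNAs in each of the 6 Y396E libraries, control in grey and arsenite in red, with lines at the group means. Control and arsenite dots do not overlap for any of the 14 genes, some of which were chosen for lack of overlap. FOS shows the widest gap, from 5.18 to 11.5 CPM in control to 731 to 798 CPM in arsenite.

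Genes for protein quality control and for charging tRNAs rose together. Of 31 tested proteasome subunits, which build the protease that degrades ubiquitin-tagged proteins, 25 rose (80.65%) and 0 fell (median 0.65). Over all tested genes 31.3% rose and 33.8% fell. By edgeR 1 subunit was lower at an unadjusted p under 0.05, and DESeq2 called 0 lower. PSMA1 (-0.23) and PSMD12 (-0.22) had the lowest values, and 1 subunit was called lower without control library 1. PSMD1, a base subunit of the regulatory particle, went from 47.3, 51.0 and 59.4 CPM to 193, 184 and 195 CPM (1.86 ± 0.11), with no overlap. Of 20 aminoacyl-tRNA synthetases, which load amino acids onto tRNA and include ATF4 targets, 19 rose (95%) and 0 fell, also at an unadjusted p and by DESeq2 (median 1.33). GARS1, the glycine enzyme, went from 75.9, 79.5 and 89.2 CPM to 411, 340.3 and 445 CPM (2.29 ± 0.12, adjusted p = 2.3e-13). VARS1, the valine enzyme, went from 124, 144 and 147 CPM to 739, 822 and 809 CPM (2.51 ± 0.13). QARS1, the glutamine enzyme, was the member not called (-0.13 ± 0.10, adjusted p = 0.26), and RARS1 rose least (0.45). The call of RARS1 was lost without control library 1 or 3 or arsenite library 1, and under the parental-level scaling (0.03). Under the parental-level scaling 10 proteasome genes rose and 5 fell (median 0.24), and 17 synthetase genes rose and 1 fell (median 0.91).

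The ATF4 list holds targets of the integrated stress response that follows eIF2α phosphorylation. It had 16 of 26 tested members up (61.5%) and 7 down (26.9%), against 31.3% and 33.8% of all tested genes (median 0.80). Under the parental-level scaling 15 rose and 9 fell (median 0.39). DDIT4, an inhibitor of mTORC1 signalling, went from 7.34, 6.47 and 5.48 CPM to 32.3, 33.8 and 31.7 CPM (2.34 ± 0.22). CEBPG, a partner of ATF4, went the other way, from 84.1, 77.7 and 97.9 CPM to 37.3, 37.4 and 38.2 CPM (-1.20 ± 0.10), and the amino acid transporter SLC7A1 fell too (-0.97). Among genes of the unfolded protein response and the endoplasmic reticulum, 17 of 29 rose (58.6%) and 3 fell (10.3%), with a median of 0.48. Under the parental-level scaling 10 of them rose and 5 fell (median 0.06). HERPUD1 (2.20) and SYVN1 (1.74), both of the degradation machinery in that organelle, led the list, and the oxidase ERO1A (-1.29) and EDEM1 (-0.55) were at its foot. XBP1, whose mRNA is spliced by IRE1 under stress, was at 48.8, 46.5 and 45.7 CPM and then 65.8, 65.0 and 61.9 CPM (0.45 ± 0.17, adjusted p = 0.021). Its rise was 0.04, and no longer called, under the parental-level scaling, and it was not called without control library 3 or arsenite library 1 or 2. EDEM1 was not called without control library 1 or 3 or arsenite library 3.

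NRF2 and metal response genes were split. Of 26 tested, 12 rose (46.2%) and 10 fell (38.5%), against 31.3% and 33.8% of all tested genes. The median of 0.18 became -0.23 under the parental-level scaling. TKT, an enzyme of the pentose phosphate pathway, rose (1.47) from 114, 128 and 107 CPM to 324, 332 and 308 CPM. HMOX1, which degrades haem, went from 9.78, 12.5 and 8.80 CPM to 24.4, 21.2 and 27 CPM (1.23 ± 0.23), and the quinone reductase NQO1 rose by 0.69. These 3 genes had no overlap between treatments. The ferritin subunits, which store iron, fell: FTH1 went from 7339.5, 6819.8 and 6661 CPM to 3089.6, 3412 and 2842 CPM (-1.15 ± 0.12), and FTL from 7384, 6928 and 6002 CPM to 2352, 2759.9 and 2277 CPM (-1.46 ± 0.16). The zinc exporter SLC30A1 (-2.19), the NRF2 partner MAFG (-1.66) and thioredoxin reductase TXNRD1 (-1.29) also fell.

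The 12 genes with the largest losses have unlike functions, among them cell signalling, phosphatase control and ubiquitin removal. ANKRD33B, an ankyrin repeat protein, went from 179, 161 and 187 CPM to 22, 21.4 and 19.5 CPM (-3.06 ± 0.17, adjusted p = 1.0e-12). ARHGDIB, an inhibitor of GDP release by small GTPases, was at 13.1, 12 and 10.7 CPM and then 1.43, 2.06 and 2.08 CPM (-2.69 ± 0.31). SERTAD2, a transcriptional coregulator, went from 998, 955 and 1162 CPM to 178, 171 and 189.8 CPM (-2.53 ± 0.13). The 12 were also picked from called genes without overlap between treatments, so the separation of their libraries followed from the choice. ARPP19, which inhibits the phosphatase PP2A in mitosis, fell from 1096, 940.1 and 1140.1 CPM to 227, 209 and 218 CPM (-2.28 ± 0.11). NUDT3, a Nudix hydrolase, fell from 278, 246 and 286 CPM to 46.1, 44.1 and 53.7 CPM (-2.49 ± 0.14). The remaining 7 were TP53INP1 (-2.65), induced by p53, POMK (-2.62), a kinase of O-mannosyl glycans, PARD6B (-2.58), a polarity protein, YOD1 (-2.57), a deubiquitinase, CLCF1 (-2.54), a cytokine, PDGFB (-2.35), a growth factor chain, and ZNF678 (-2.28), a zinc finger protein. Averaged over both treatments, the Y396E level of the 12 ran from 0.744 times the parental level for PARD6B to 9.19 times for PDGFB. From control to arsenite, the parental libraries went from 188 to 33.2 CPM for PARD6B and from 59.4 to 17.1 CPM for CLCF1. They went from 13.5 to 63.0 CPM for ANKRD33B and from 57.4 to 101 CPM for ARPP19, so the 12 did not move alike there. The part of background binding in these losses was not tested. The untranslated region after the stop codon (3′UTR) of the canonical transcript had 9074 bases in NUDT3 and 7703 in ANKRD33B, but 557 in POMK and 491 in ARHGDIB.

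AU-rich elements occurred at both ends of the ranking. The core TATTTAT was in the 3′UTR of 39.4% of the 8484 genes whose canonical transcript has a 3′UTR of at least 100 bases. It was in 29.5% of the genes that rose, 36.8% of those not called and 51.0% of those that fell, and 3′UTRs were longer among the last. FOS held 2 copies, DUSP1 3 and JUN 1, and on the falling side CLCF1 held 4, SERTAD2 4, ZNF678 5 and NUDT3 1. A window of each of 5 of these 3′UTRs is shown to compare the element in genes that moved in opposite directions, with each run of it in capitals (hg38: FOS, chr14:75282059-75282088, plus strand; DUSP1, chr5:172768643-172768672, minus; JUN, chr1:58780819-58780848, minus; CLCF1, chr11:67364240-67364269, minus; NUDT3, chr6:34287749-34287778, minus).
FOS: gtgtttttaattTATTTATtaagatggatt
DUSP1: agggctggtcctTATTTATttaacttcacc
JUN: tttgcttatgaaTATTTATaacagcattct
CLCF1: gtgttgtattaaTATTTATTTATttggaga
NUDT3: tttccgtaatgcTATTTATtgccaacaatg
The first 3 of these genes rose and the last 2 fell, so genes with the same letters moved in both directions.

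mRNAs described as IGF2BP1 targets fell more often than they rose. Of 35 tested, 18 fell (51.4%) and 11 rose (31.4%), against 33.8% and 31.3% of all tested genes. Only the share that fell thus stood apart from all tested genes, and 6 members were not called. The median of -0.35 was -0.77 under the parental-level scaling. HMGA2, an architectural chromatin protein with a long 3′UTR, went from 1663, 1422 and 1738 CPM to 664, 595 and 721 CPM (-1.28 ± 0.12, adjusted p = 3.0e-09). It averaged 9.66 times the parental level. PABPC1, the cytoplasmic poly(A)-binding protein, went from 20384, 16723 and 18512 CPM to 7122, 7070.3 and 7569.5 CPM (-1.35 ± 0.12), while its parental libraries stood at 2038 and 2043 CPM. PHC3, a Polycomb protein, went from 688, 585 and 706 CPM to 349, 345 and 384 CPM (-0.87 ± 0.09) and averaged 13.9 times the parental level. All arsenite libraries were below all control libraries for these 3 mRNAs. HMGA1, a relative of HMGA2, fell by less (-0.48 ± 0.11), from 33792, 29474 and 30031 CPM to 21314, 21998 and 23581 CPM. MDM2 (-1.91), the E3 ligase of p53, CDK6 (-1.57) and NRAS (-1.22) fell too.

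ACTB, the β-actin mRNA whose zipcode element is the classic ligand of IGF2BP1, rose. It was at 1089, 1287 and 1270.0 CPM in control and 2828, 2768 and 2733 CPM in arsenite (1.195 ± 0.15, adjusted p = 3.4e-07). Parental cells gave 2605 and 3084 CPM, so the Y396E mean was 0.702 times the parental mean. The adhesion and signalling gene CTNNB1 (1.91) and the actin bundler FSCN1 (1.21) also rose, and LIPA, a lysosomal lipase, went from 26.9, 24.3 and 26 CPM to 44.8, 44.6 and 38.7 CPM (0.73 ± 0.16). EIF2A was not called (-0.15, adjusted p = 0.14). Under the parental-level scaling LIPA was not called (0.31), and EIF2A (-0.57) and MYC (-0.62) were called lower. CCDC127 and IGF2 did not pass the filter and have no test. CCDC127 was at 12.3, 12 and 11.2 CPM in control and 6.67, 6.58 and 6.99 CPM in arsenite, and IGF2 at 4.68, 4.39 and 5.33 CPM and then 8.77, 7.59 and 6.96 CPM. Both had no overlap between treatments.

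The zipcode carries GGAC and ACACCC, the letters read by the KH domains, with a spacer between them. This arrangement, allowing a spacer of 8 to 18 bases on the transcript strand, was found 203 times in the 3′UTRs of 200 of 8484 genes (2.36%). Of the 200 genes, 48 rose (24%) and 82 fell (41%), against 31.2% and 34.3% of all 8484. Their 3′UTRs were longer, with a median of 3240 against 1597 bases. The ACTB site is printed because it is the classic example of the element, with GGAC and ACACCC in capitals (hg38, minus strand: chr7:5527719-5527745).
ACTB: GGACtatgacttagttgcgttACACCC
Among the genes named for their values, YOD1, YTHDC1 and ZNF579 also had the arrangement, and ACTB and YOD1 moved in opposite directions. YTHDC1, a nuclear m6A reader, rose by 1.23 and ZNF579 by 0.56, beside 1.195 for ACTB and -2.57 for YOD1. The rise of ZNF579 was 0.15, and not called, under the parental-level scaling.

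Regulators of mRNA fate had calls in both directions, as the tested genes did as a whole (31.3% up and 33.8% down). Of 21 genes that write, erase or read m6A, 10 fell and 7 rose (median -0.19), with IGF2BP3 (-1.15) and the methyltransferase METTL16 (-1.05) lowest and the reader HNRNPA2B1 (1.63) highest. IGF2BP1 itself fell (-0.83 ± 0.12, adjusted p = 1.5e-06), and its 3 arsenite libraries lay below the 3 control libraries. IGF2BP2 fell as well (-0.45, adjusted p = 0.0082), though not past the threshold without control library 3 (-0.33). Of 27 genes for poly(A) binding and deadenylation, 12 fell and 8 rose (median -0.14), from PAIP2B (-1.54), a PABP inhibitor, to the deadenylase subunit PAN2 (2.31). Of 37 stress granule proteins, 20 rose and 6 fell, and the median of 0.36 became -0.05 under the parental-level scaling. SND1 (1.78) and EIF3B (1.64) were highest there and PABPC1 and NUFIP2 (-1.09) lowest.

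Ribosomal protein mRNAs, short transcripts whose translation is gated by a 5′ oligopyrimidine tract, had 0 of 75 tested members up and 44 down (58.7%, median -0.56). At an unadjusted p edgeR put 0 up and 51 down, and DESeq2 called 0 up and 42 down. Under the parental-level scaling 0 rose and 72 fell (median -0.97). Many of these genes have processed pseudogenes, as the ferritins, HMGA1, ACTB and PABPC1 do, and nuclear copies exist of mitochondrial genes, so single values are uncertain where the counting could split reads. RPSA went from 4164, 4204 and 2898 CPM to 1137, 1177 and 994 CPM (-1.76 ± 0.19), and RPL41 from 239.6, 197 and 141 CPM to 67.4, 55.4 and 39.7 CPM (-1.83 ± 0.22). The highest values in the list were those of FAU (0.41, adjusted p = 0.16) and RPS9 (0.25, adjusted p = 0.40). For respiratory chain genes of the nucleus, 17 of 66 rose (25.8%) and 6 fell (9.09%), against 31.3% and 33.8% of all tested genes (median 0.16). Under the parental-level scaling 7 rose and 21 fell (median -0.24). ATP5F1B, a catalytic subunit of ATP synthase, rose from 369, 431 and 401 CPM to 1383, 1438 and 1284 CPM (1.78 ± 0.16).

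Of the 13 mRNAs made inside mitochondria, 12 averaged 4-fold or more over the parental level. The other, MT-ND6, was at 0.493 times it. With arsenite 4 rose (30.8%), 2 fell (15.4%) and 7 were not called. Over all tested genes 31.3% rose and 33.8% fell, so the share that rose was near that of all genes. MT-ND4 went from 15529, 11116 and 20539 CPM to 26650.0, 33110.0 and 30564 CPM (0.94 ± 0.23), and MT-CO1 from 29964, 20120.0 and 32763 CPM to 34873, 39413 and 36307 CPM (0.42 ± 0.16, adjusted p = 0.027). The control libraries of this list spread widely, with sums of 75540 to 133500 CPM. Its median of 0.09 was -0.10 without control library 2, 0.56 without control library 3 and -0.34 under the parental-level scaling, where MT-CO1 was at -0.0098 and neither it nor MT-ND4 (0.51) was called. MT-CO1 was also not called without control library 2 or arsenite library 2. The number that fell was 1 without control library 1 or 3, and 0 without arsenite library 1 or 3.

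Zinc finger genes of chromosome 19 fell, with 34 of 58 down (58.6%) and 2 up (3.45%), against 33.8% and 31.3% of all tested genes. Their median was -0.47. ZNF587B (-1.82) and ZNF121 (-1.76) were lowest, and ZNF627 (0.67) and ZNF579 were the 2 that rose. Neither was called under the parental-level scaling, and ZNF627 was not called without control library 3. Replication-dependent histones, whose mRNAs end in a stem-loop and lack a poly(A) tail, showed few calls, with H3C12 up (0.61), H2BC21 not called (-0.62, adjusted p = 0.056), and 1 rise and 1 fall in 37 tested. The fall was not called without control library 1 or 2 or any arsenite library, 4 members fell without control library 3, and 17 fell under the parental-level scaling, where H3C12 was not called (0.19). Cell cycle genes of the cyclin and E2F list had 21 of 41 up and 9 down, led by the helicase subunit MCM7 (1.96) and the topoisomerase TOP2A (1.72), with the E2F partner TFDP1 (-1.27) and CDK6 lowest. Their median of 0.39 became -0.02 under the parental-level scaling. Cholesterol synthesis genes had 15 of 21 up and 3 down (median 0.82; 10, 4 and 0.40 under the parental-level scaling), led by the sterol reductase TM7SF2 (1.96) and the regulator SREBF1 (1.72), while STARD4 (-1.23) and INSIG1 (-0.68) fell. Of 9 tested integrins, 6 rose (66.7%) and 1 fell (11.1%), or 4 and 1 under the parental-level scaling. ITGB4 went from 392, 393 and 454 CPM to 1349, 1463 and 1533 CPM (1.81 ± 0.10). The integrin that fell, ITGAE (-0.79), was not called without arsenite library 3. All 5 tested epithelial markers rose, by 0.97 to 1.31, and 0 fell, also at an unadjusted p and by DESeq2.

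**Figure D3:**
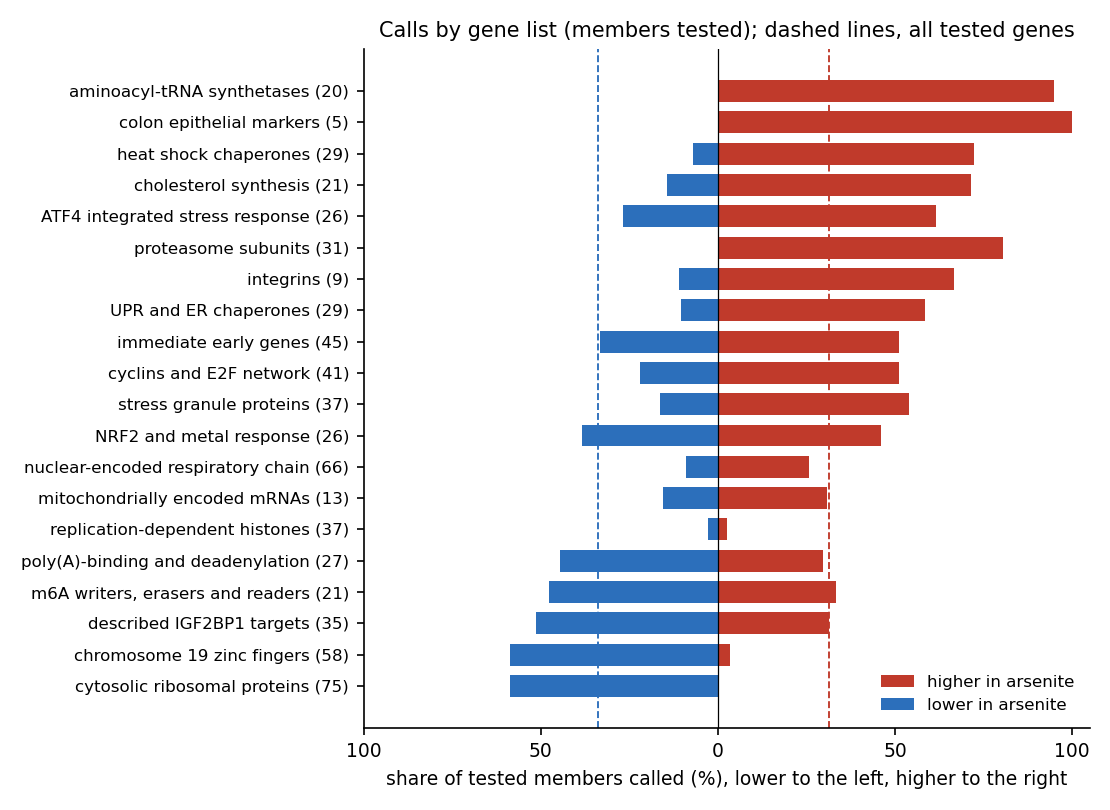
Share of the tested members of each of 20 gene lists called higher (red, right) or lower (blue, left) with arsenite in Y396E cells, in percent, with the number tested in parentheses and dashed lines at the shares over all tested genes, 31.3% and 33.8%. Synthetases and proteasome subunits extend only to the right, ribosomal proteins only to the left, and zinc fingers, m6A and described target lists lie mainly to the left.

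The makeup of the transcript ran in parallel with the change. For each gene's canonical transcript, the share of its length that is coding sequence had a median of 62.9% among genes that rose, 48.2% among those not called and 30.9% among those that fell. Across the 8734 genes Spearman's rho between this share and the log2 fold change was 0.50. This is a description over genes that share libraries and are not independent. The same rho was 0.43 in the wild-type line and 0.49 in S181E, so the relation was not particular to Y396E. Of 1099 genes with under 20% coding sequence, 74.3% fell and 4.37% rose. Of 1002 genes with 80% or more, 10.9% fell and 62.0% rose. In between, 53.0% fell at 20 to 30% coding and 29.8% at 40 to 50%.

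Both the coding sequence and the 3′UTR differed between the classes. Coding sequences had a median of 1923 bases in genes that rose and 1152 in genes that fell (rho 0.32), and 3′UTRs had medians of 995.5 and 2514 bases (rho -0.36). The total exonic length related weakly to the change (rho -0.14), and GC content of the transcript was 51.8% among genes that rose and 44.8% among those that fell (rho 0.24). Named genes lay on both sides of this order. ANKRD33B, which fell, had a coding share of 15.5%, but ARHGDIB (51.6%), POMK (56.4%) and PABPC1 (66.8%) fell as well. FOS, DUSP1 and EGR1, at 52.0 to 54.8%, rose, and so did FOSB (26.9%), HNRNPA2B1 (28.3%), JUN (30.6%) and YTHDC1 (35.04%). By list, the median share was 84.4% for the synthetases, 71.7% for the proteasome, 39.8% for described IGF2BP1 targets and 37.9% for immediate early genes. Ribosomal protein mRNAs were an exception, with a median coding share of 69.4% and mostly falls. 

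**Figure D4:**
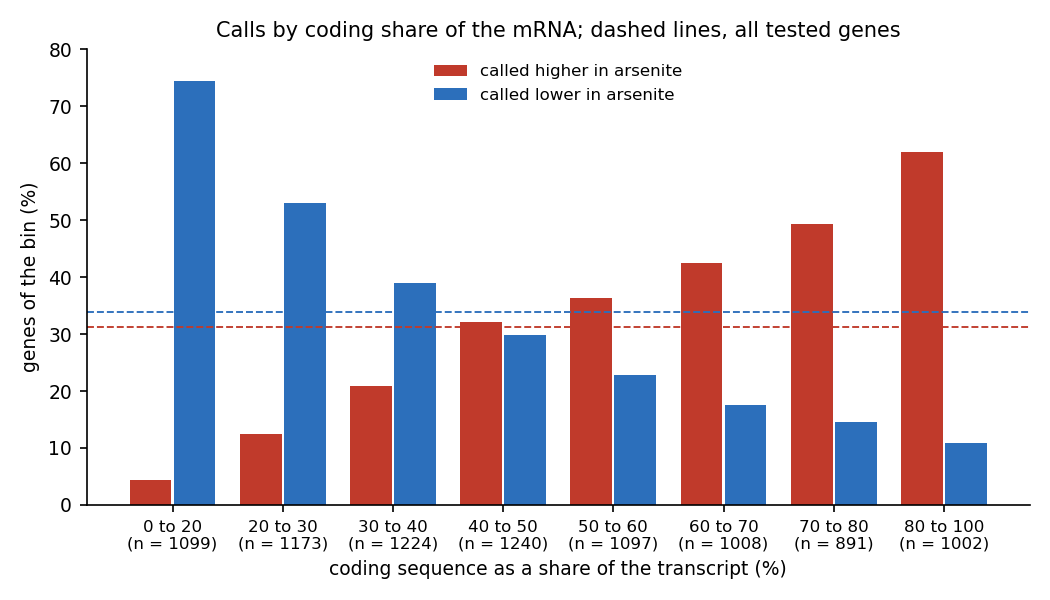
Percent of genes called higher (red) or lower (blue) with arsenite in Y396E cells, in 8 bins of the coding share of the canonical transcript, with the number of genes per bin and dashed lines at the shares over all tested genes. The share that rose climbs from 4.37% to 62.0% and the share that fell drops from 74.3% to 10.9% from the lowest to the highest bin.

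mRNAs recovered above background fell somewhat more often than the rest. Of 398 genes at least 4 times the parental level in each treatment separately, with parental counts raised to at least 3, 172 fell (43.2%) and 100 rose (25.1%), with a median change of -0.14. Of the other 8336 genes, 2780 fell (33.35%) and 2636 rose (31.6%), with a median of -0.02. When the mean of all 6 Y396E libraries was set against the mean of both parental libraries, 1314 genes (15.0%) passed, of which 730 fell (55.6%) and 207 rose (15.8%). That wider class admits genes through a single treatment, so its counts are given as a description. ARPP19, for example, was 18.45 times the parental level in control and 2.15 times in arsenite, and BCL2L1, which blocks apoptosis and fell (-1.74), was at 7.33 and 2.88 times. PHLDA1, a pleckstrin homology-like protein that rose (1.06), was at 3.79 and 14.5 times. The purine synthesis enzyme PAICS, 21.15 and 10.95 times the parental level, was not called (-0.26, adjusted p = 0.13).

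The parental background was thin. Its control library held 1238013 counts and listed 3572 of the 8734 genes at 0 (40.9%), and its arsenite library held 18942497 counts and listed 34 at 0. The parental change was taken over the 4883 genes with at least 20 counts in both parental libraries. It had a median log2 value of 0.36 for genes that rose in Y396E, -0.15 for those not called and -0.26 for those that fell. The Spearman correlation with the Y396E change was 0.26, again across genes and without a test. With 1 library per treatment the parental change has no replicate check.

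The wild-type and S181E lines show how far the arsenite response was shared. They have no library in common with Y396E, and all lines entered 1 fit. In the wild-type line 3095 genes rose and 2780 fell, and in S181E 2905 rose and 3021 fell. Log2 fold changes of Y396E correlated across genes at 0.92 with those of the wild type and 0.97 with those of S181E. Of the genes that rose in Y396E, 89.0% also rose in the wild type and 92.9% in S181E. Of those that fell, 80.8% and 91.1% fell there. Opposite calls were made for 16 genes against the wild type and 1 against S181E.

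The difference between responses, tested directly as an interaction, depended on the processing. The Y396E response was higher than that of the wild type for 39 genes (0.447%) and lower for 210 (2.4%). With the replicate number as a block the counts were 171 and 639, and with scaling by total counts 538 were lower. Over the 210 genes the median change was 0.08 in Y396E and 0.82 in the wild type, and 184 had a positive change in the wild type against 111 in Y396E. Over the 39 genes the medians were -0.23 in Y396E and -1.001 in the wild type. The counts moved with single libraries. The 39 became 17 without Y396E arsenite library 2, Y396E control library 3 or wild-type arsenite library 1, 23 without Y396E arsenite library 1, 24 without wild-type arsenite library 2, and 64 and 74 without wild-type control library 1 and 3. The 210 became 78 and 138 without wild-type arsenite library 1 and 3, 114 and 93 without Y396E arsenite library 1 and 2, 88 without Y396E control library 3 and 325 without wild-type control library 3. None of the genes named from this test reversed in these fits.

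CCNA2, the cyclin of S phase, was the most weakly induced relative to the wild type. It went from 91.5, 90.7 and 125 CPM to 222, 201 and 206 CPM in Y396E, and from 55.5 ± 5.90 to 341 ± 27.9 CPM in the wild type (SD, n = 3 libraries each). The log2 fold changes were 1.04 and 2.61, with a difference of -1.58 ± 0.17 (SE, adjusted p = 1.4e-05 by edgeR). DCAF6, a substrate receptor of CUL4 ligases, rose by 0.91 and 2.30 (difference -1.39 ± 0.15). AUNIP, an Aurora A-interacting protein, was at 23.2, 26.3 and 32.9 CPM and then 27.1, 24.8 and 27.8 CPM in Y396E, where it was not called, and rose by 1.34 in the wild type. ZNF25 fell in Y396E from 18.1, 13.9 and 21.2 CPM to 7.47, 6.70 and 8.03 CPM and had a change of 0.25 in the wild type. These 4 genes were chosen for the lowest differences, so their lower response in Y396E followed from the choice. For CCNA2 the Y396E control level was higher than that of the wild type and its arsenite level lower.

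On the other side, JUN rose by 4.08 in Y396E and 3.09 in the wild type, where it went from 28.9 ± 4.64 to 248 ± 36.1 CPM (difference 0.99 ± 0.19, adjusted p = 0.0042 by edgeR). The arsenite levels of both lines were alike and the control level of Y396E was lower. METTL3, the m6A methyltransferase, rose from 19.1, 18.2 and 17.2 CPM to 39.3, 34 and 41.8 CPM in Y396E and changed by -0.13 in the wild type (difference 1.21 ± 0.25). The keratin KRT80 and the growth factor HBEGF fell by 1.79 and 0.45 in Y396E and by 2.92 and 1.58 in the wild type. In S181E the log2 fold changes were 4.15 for JUN, 0.54 for METTL3, -2.02 for KRT80 and -0.61 for HBEGF. None of these 4 responses was called different between S181E and Y396E. The fall of HBEGF within Y396E was not called without control library 1 or 3 or arsenite library 1 or 3. Of 627 tested members of the lists, 7 had a higher and 12 a lower response in Y396E. Over all 8734 tested genes these were 39 (0.447%) and 210 (2.4%). The share of members with a lower response was thus below that of all tested genes, and the share with a higher one rested on 7 genes. SND1 rose more (difference 0.62), as did the ribosomal protein mRNAs RPL23 (0.73), RPL23A (0.93) and RPL29 (0.65), which have processed pseudogenes, and TM7SF2 (-0.76), CNOT11 (-0.72), CNOT9 (-0.56), DNAJB1 (-0.51) and IGF2BP3 (-0.47) were among the lower ones. The call was lost for HBEGF without wild-type arsenite library 1 or 2 or Y396E arsenite library 2, for IGF2BP3 without Y396E control library 1 or arsenite library 1 of either line, and for TM7SF2 without Y396E arsenite library 2 or wild-type arsenite library 1.

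**Figure D5:**
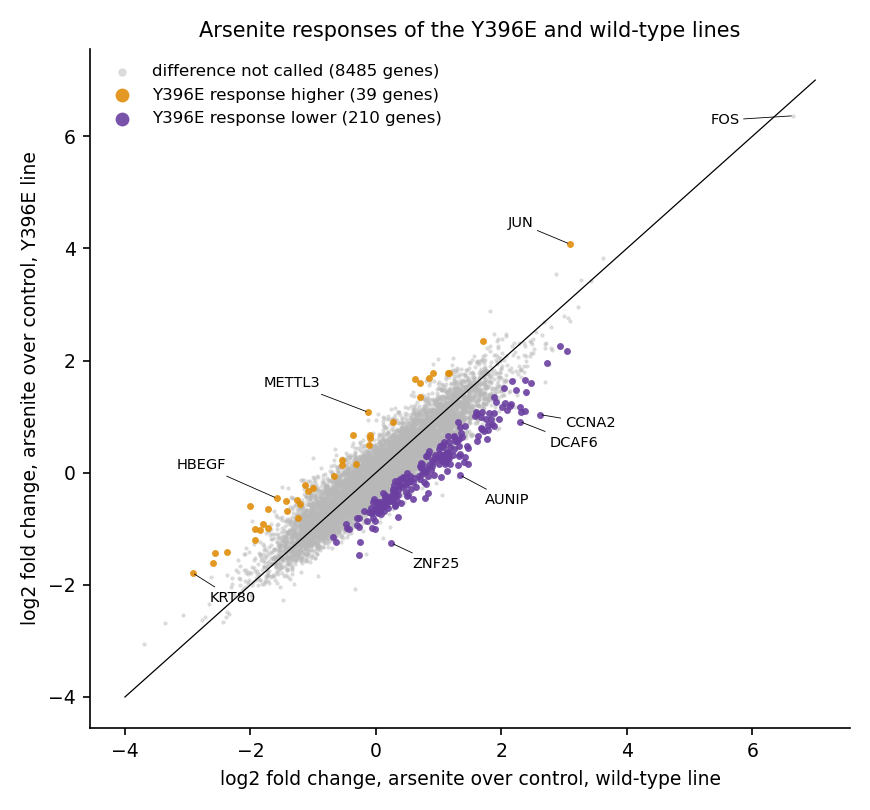
Log2 fold change with arsenite in the Y396E line against that in the wild-type line for 8734 genes, with a line at equality. Orange points are the 39 genes whose Y396E response was called higher and purple points the 210 called lower; 184 of the purple points lie right of 0 on the wild-type axis, and JUN, at 4.08 in Y396E, is the highest orange point.

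Against S181E, the other phosphomimetic line, the Y396E response was higher for 0 genes (0 of 8734 tested, with 106 at an unadjusted p under 0.05 and 1 by DESeq2) and lower for 3 (0.0343%, with 25 by DESeq2). The 3 were CCNA2 (difference -0.99, adjusted p = 0.027 by edgeR), the protease inhibitor SERPINE2 (-0.82) and the ubiquitin-conjugating enzyme UBE2D3 (-0.68). SERPINE2 went from 49.6, 54.2 and 61.7 CPM to 122, 115 and 122 CPM in Y396E, a change of 1.12, beside 1.94 in S181E and 2.10 in the wild type. UBE2D3 fell in Y396E from 534, 531 and 629.9 CPM to 449, 414 and 471 CPM, while its log2 fold changes were 0.34 in S181E and 0.48 in the wild type. All 3 were also lower in the comparison with the wild type. The count was 0 when any 1 of the Y396E arsenite libraries, Y396E control library 3, S181E control library 1, or S181E arsenite library 1 or 3 was left out, and 1 without S181E arsenite library 2. The difference of UBE2D3 was still called without Y396E control library 2 but not when any other library of either line was left out, and its fall within Y396E was not called without control library 3. Without S181E control library 3 neither CCNA2 nor SERPINE2 was called.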

How the data were processed

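RNA bound to mCherry-IGF2BP1 was captured on RFP-Trap beads, depleted of rRNA and sequenced from a directional library. The authors deposited 1 table per library of raw counts per gene, made with STAR 2.7.11b (hg38, GENCODE annotation) and featureCounts of Subread 2.0.6, with no normalization. Columns of samples outside the series numbered 0. Symbols and biotypes came from GENCODE 44, and 62541 of 63086 gene identifiers were found there.

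Counts of protein-coding genes were scaled by TMM, kept above 10 CPM in at least 11.5 of 23 mCherry libraries, and fitted in 1 model of 8 groups without covariates by edgeR 4.0.16 (quasi-likelihood test, R 4.3.3), with Benjamini-Hochberg adjustment over 8734 genes. Printed CPM used TMM over all 25 libraries. Transcript lengths and motifs came from the canonical GENCODE transcripts, and promoters from RefSeq. The fit was tested on simulated data. Alternatives used DESeq2 1.42.0, other scalings, filters and sample sets. Python 3.11.15, pandas 2.3.3, scipy 1.17.1 and matplotlib 3.10.9 made the summaries.

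Named genes were the 12 highest and 12 lowest called changes without overlap, the 4 at either end of each interaction, the 2 at either end of each gene list, the 5 most abundant per group, and 14 genes the study's text names; other genes, such as ATF3, HSP90AB1, NRAS or BCL2L1, were named after their values were seen. Some genes that the rule names, and some sequences, are not reported here. Members and lists were chosen with earlier results of these data known. Gene lists are described by counts and medians, with no set test. Replicates were separately grown dishes of 1 line, and no libraries held identical counts.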

Additional observations from a re-analysis of the deposited data

Results flagged for a closer look

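The arsenite response of several named genes differed between the Y396E and wild-type lines, by edgeR's interaction test at an adjusted p under 0.05. As log2 differences, Y396E minus wild type, the responses were higher for METTL3 (1.21), KRT80 (1.13), HBEGF (1.13), JUN (0.99) and SND1 (0.62), and lower for CCNA2 (-1.58), ZNF25 (-1.50), AUNIP (-1.39), DCAF6 (-1.39), SERPINE2 (-0.97), UBE2D3 (-0.83), TM7SF2 (-0.76) and IGF2BP3 (-0.47). The difference from S181E passed the same test for CCNA2 (-0.99), SERPINE2 (-0.82) and UBE2D3 (-0.68). KRT80, HBEGF and IGF2BP3 fell in both lines, and CCNA2, DCAF6, JUN, SERPINE2, SND1 and TM7SF2 rose in both. For these genes the size and not the direction of the response differed, though the fall of HBEGF in Y396E depended on single libraries.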

How the results depend on the processing

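In none of the alternatives run was a gene called in the opposite direction in Y396E. With TMM over genes that the bait did not raise over the parental cells, 1414 genes rose and 4554 fell, 20 responses were higher than in the wild type, 0 were lower than in S181E, the difference of SND1 from the wild type was not called, and MT-CO1 turned to -0.0098; that scaling shifts all genes down alike. Over only the genes 4-fold above the parental RIP, where fewer genes are tested, 211 rose and 735 fell, 2 and 58 responses were higher and lower than in the wild type, and 1 was lower than in S181E. Scaling by total counts gave 538 lower than in the wild type, 13 lower than in S181E and 8.27% of tested genes in the enriched class, against 15.0%; with glmTreat the numbers were 9 higher and 55 lower than in the wild type and 0 lower than in S181E; DESeq2 gave 132 higher than in the wild type, and 1 higher and 25 lower than in S181E; all biotypes gave 452 and 7 lower. Against S181E, 7 were lower in a fit of only the lines compared, 0 with filterByExpr and 1 with no filter on low counts. The enriched class held 37.6% of tested genes at 2-fold, 4.53% at 8-fold, 7.71% with the parental arsenite library for both treatments and 4.56% when each treatment had to pass, an alternative chosen after seeing the data. The cause of these differences was not tested. Deviations of same-numbered Y396E arsenite and control libraries correlated at 0, 0.20 and 0.24, and those of differently numbered ones at -0.29 to 0.11. An effect shared by libraries of 1 number is therefore possible and was not tested. The labels do not say what the numbers mark, and the main fit did not pair by them. With the replicate block 2884 genes rose and 3078 fell. Responses higher and lower than in the wild type then numbered 171 and 639, and than in S181E 2 and 29. Of the named Y396E changes the block altered the call of FAU, H1-2 and H2BC21 only. Without 1 replicate at a time, 2499 to 2610 genes rose and 2759 to 2834 fell, 17 to 74 and 78 to 325 responses were higher and lower than in the wild type, 0 to 3 were lower than in S181E, and rho of exonic length with the change was -0.183 to -0.096. Of 605 log2 fold changes of named genes under other settings, 579 kept direction and call, and of 726 without a replicate, 696 did. Depth limits the parental control library most.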
